A study of Bos taurus with 9 samples.

Results

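The extracellular matrix genes of this survey of Yan yellow cattle are the chains of collagen and laminin, the nidogens, the lysyl oxidases and a set of proteoglycans and glycoproteins. They were taken by gene symbol. A probe set qualified when its annotation held exactly 1 symbol and that symbol named a collagen chain, a laminin chain, a nidogen or a lysyl oxidase, or was FN1, FBN1, ELN, SPARC, DCN, LUM, BGN, FMOD, KERA, POSTN, THBS1, THBS2, EFEMP1 or HSPG2. This gave 88 probe sets of the 24016 tested, for 47 of the 9155 genes with a single-symbol probe set. Where a gene had several, as 23 of the 47 did, the brightest by its 9-array mean stands for it. RNA came from abdominal adipose tissue, subcutaneous adipose tissue and longissimus dorsi muscle, the long skeletal muscle of the back, with 3 arrays per tissue. The animals were bulls aged 24 months of the same breed, kept alike and given no treatment that the labels name. An RNA extraction kit is named for the adipose samples alone. The labels count 9 bulls without tying samples to them, so p-values here speak of the spread among these particular samples, and the number of arrays limits the precision.

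Collagens are the structural fibres and sheets of connective tissue. Fibril-forming chains build the interstitial fibres, type IV collagen forms the network of basement membranes, and laminins form another network there that nidogens and perlecan tie to it. Lysyl oxidases cross-link collagen and elastin, and small leucine-rich proteoglycans bind collagen fibrils and set their width. In fat every adipocyte is wrapped in its own basement membrane, and in skeletal muscle every fibre is, inside the interstitial layers that lead into tendon. Roles named below are those described for mammals, mostly in human and mouse.

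Levels are log2 probe set intensities. A probe set with no tissue mean of 6 or more is called dim here. That level is a chosen cut without a detection call, and values under it are treated as near background. Of an array's probe sets, 46.1% to 49.0% exceed it. A gene was called when its p-value, adjusted over all 24016 probe sets, was under 0.05. The labelled tissues fitted their defining markers. All 8 measured adipocyte markers of 10 listed were higher in adipose tissue, among them PPARG, the master regulator of fat cell formation (4.24 ± 0.20), and 9 of 10 measured muscle fibre markers were lower, among them CKMT2, the mitochondrial creatine kinase (-8.64 ± 0.17). The exception was CKM, the creatine kinase of muscle, which was called higher in adipose tissue by its brightest probe set (1.46 ± 0.20). The 3' to 5' signal ratio of GAPDH controls, which tracks how intact the RNA was, was 1.21 to 1.74 on the adipose arrays and 0.937 to 1.01 on the muscle arrays, and that of actin was 2.23 to 8.17 on the adipose arrays and 0.963 to 1.04 on the muscle arrays. Their part in the differences below was not tested. Array medians were 0.12 higher in adipose tissue than in muscle. In whole tissue, a different number of matrix-producing cells and a different amount of RNA per cell cannot be told apart.

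Most matrix genes were higher in adipose tissue than in muscle. Against the mean of both depots, 27 of the 47 were called higher, 11 lower and 9 not called, where 32.0% of all genes were called higher and 29.5% lower. The median difference was 1.35 over the 47 genes and -0.02 over all 9155. The largest was 2.70 ± 0.17 (SE) for COL4A1, a 6.48-fold difference in intensity. All 6 adipose arrays lay above all 3 muscle arrays for 26 members and below them for 7, against 27.6% and 25.8% of all genes. Of the 11 lower members, 6 were dim in every tissue. The same 38 genes were called with each array centred on its median, which removes the shift of array medians, and 37 of them after quantile normalization, without THBS2. For 4 of the higher members, COL18A1, COL21A1, LOX and ELN, the muscle mean was under 6, and for COL2A1 and COL11A2 among the lower ones both adipose means were, so these sizes rest on values near background.

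**Figure D1:**
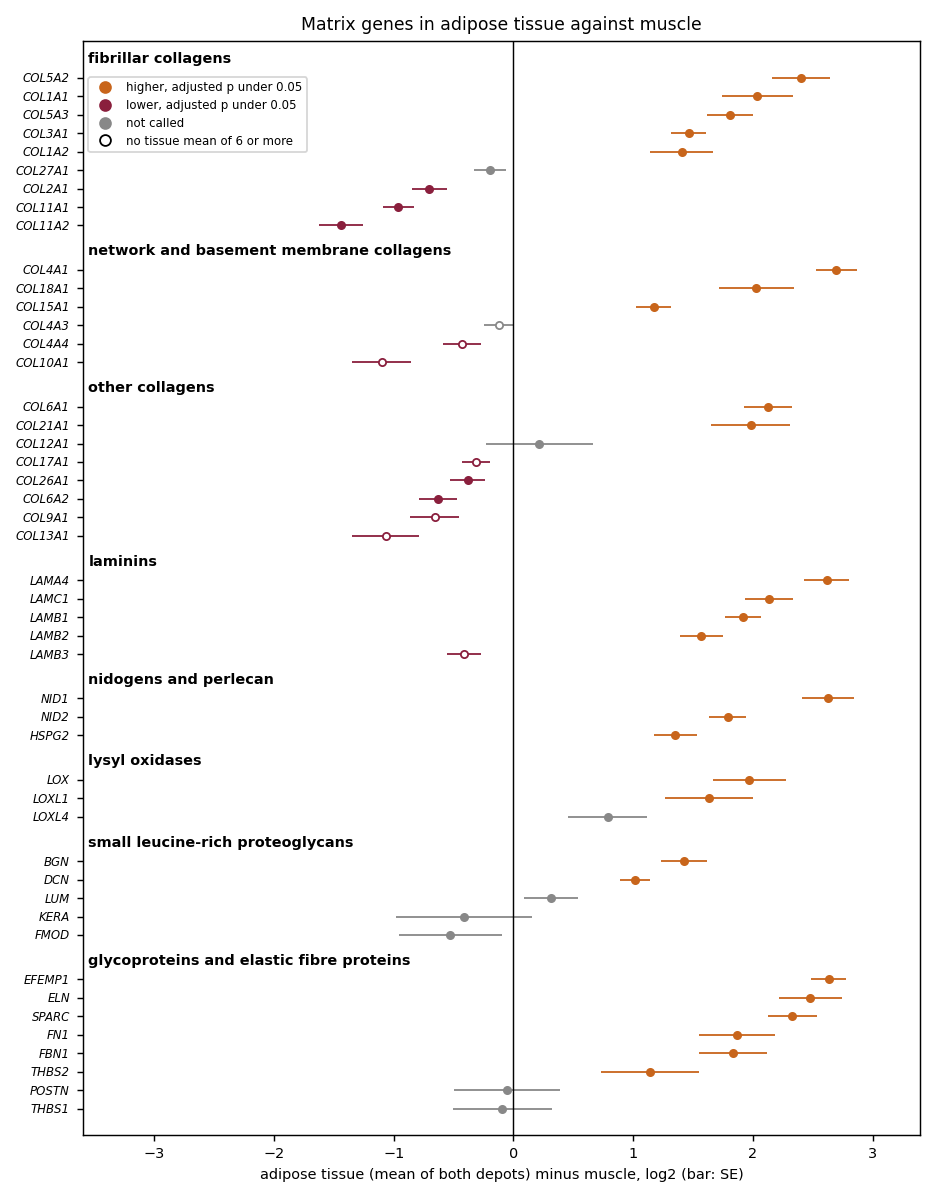
Difference between adipose tissue (mean of abdominal and subcutaneous fat) and muscle for the 47 matrix genes, in log2 units, with the moderated standard error as the bar. Genes are grouped by role. The basement membrane genes COL4A1, LAMA4 and NID1 stand at 2.62 to 2.70, and COL11A2, at -1.44, is the lowest.

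Apart from COL27A1, fibrillar collagens split into the chains of ordinary connective tissue and the chains known from cartilage. Of 9 measured, 5 were higher, 3 lower and 1 not called (median 1.40). COL5A2, a chain of the type V collagen that starts fibrils, had 10.10, 9.69 and 10.32 in abdominal fat, 10.43, 10.04 and 10.18 in subcutaneous fat and 8.29, 7.08 and 7.81 in muscle. It differed by 2.40 ± 0.24 (adjusted p = 2.64e-05), and the lowest adipose array was 1.40 above the highest muscle array. COL1A1, the main chain of type I collagen, had 11.42, 11.25 and 12.26 in abdominal fat, 12.61, 12.41 and 12.36 in subcutaneous fat and 10.37, 9.22 and 10.45 in muscle. Muscle replicate 2 was the lowest array, and the difference was 2.04 ± 0.30 (adjusted p = 0.000271). COL5A3, another type V chain, had 9.19, 8.29 and 8.51 in abdominal fat, 8.49, 8.29 and 8.52 in subcutaneous fat and 6.68, 6.97 and 6.55 in muscle, and was higher in adipose tissue by 1.81 ± 0.19 (adjusted p = 3.25e-05). COL3A1, the chain of type III collagen, and COL1A2, the partner of COL1A1, were higher by 1.46 ± 0.14 and 1.41 ± 0.26. Both were close to the top of the scale in adipose tissue, with means of 13.52 and 13.41 in subcutaneous fat, where the array maxima lie between 13.70 and 13.71. Whether the top of the scale limits these sizes was not tested.

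The 3 lower fibrillar chains are those of cartilage collagens. COL11A2, a chain of type XI collagen, had 4.76, 4.79 and 5.07 in abdominal fat, 5.16, 5.18 and 4.79 in subcutaneous fat and 6.71, 5.91 and 6.57 in muscle. Every adipose array was below every muscle array, with a difference of -1.44 ± 0.18 (adjusted p = 0.000116). COL11A1, its partner, had 6.05, 6.26 and 6.10 in abdominal fat, 5.86, 5.92 and 6.33 in subcutaneous fat and 7.14, 7.05 and 6.95 in muscle, and was lower by -0.96 ± 0.13 (adjusted p = 0.00016). COL2A1, the main cartilage collagen, had 5.42, 5.32 and 5.57 in abdominal fat, 5.29, 5.45 and 5.68 in subcutaneous fat and 6.01, 6.48 and 5.98 in muscle, and was lower by -0.70 ± 0.15 (adjusted p = 0.00259). Its adipose arrays were all under 6. COL27A1, a fibrillar chain of developing cartilage, was not called at its brightest probe set (-0.19 ± 0.14, adjusted p = 0.252). Its other probe set was called higher in adipose tissue (0.68, adjusted p = 0.0244).

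The tendon genes TNMD, COMP and THBS4 were lower in adipose tissue too. Across the muscle arrays they were lowest on replicate 2. The members FMOD and COL12A1, also described in tendon, were not called. Among the cartilage collagens the order varied. COL2A1 was highest on replicate 2 at its brightest probe set (6.01, 6.48 and 5.98) and lowest there at another (5.81, 4.62 and 5.59). COL11A2 and COL10A1 were lowest on replicate 2. COL9A1, dim in every tissue, and COL11A1, each at its brightest probe set, were lowest on replicate 3. For COL11A1 those values lay close together (7.14, 7.05 and 6.95). At the COL11A1 probe set with the largest difference from muscle, replicate 2 was lowest (8.39, 6.37 and 7.52). Of 8 markers listed for tendon and cartilage 5 were measured, COL2A1 among them, and 4 were lower in adipose tissue and none higher. Their summed intensity was 297 to 384 on the abdominal arrays, 283 to 355 on the subcutaneous arrays and 2494 to 6217 on the muscle arrays. Tenomodulin, TNMD, a membrane protein of tendon, differed by -5.90 ± 0.34 and had 10.32, 8.45 and 9.47 on the muscle arrays against at most 4.08 on any adipose array. COMP, a pentameric cartilage and tendon glycoprotein, differed by -3.81 ± 0.39. THBS4, a thrombospondin of tendon and muscle, differed by -3.86 ± 0.25. Aggrecan, ACAN, was not called (-0.13 ± 0.10, adjusted p = 0.328) and read 4.90 to 5.12 on the muscle arrays. The part of tendon tissue in the lower collagens was not tested.

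Among network and basement membrane collagens, 3 of 6 were higher, 2 lower and 1 not called. COL4A1, the ubiquitous chain of basement membrane type IV collagen, had 12.85, 12.90 and 13.03 in abdominal fat, 12.90, 12.69 and 12.57 in subcutaneous fat and 10.02, 9.78 and 10.59 in muscle. The lowest adipose array stood 1.98 above the highest muscle array, and the difference was 2.70 ± 0.17 (adjusted p = 1.3e-06). COL18A1, the precursor of endostatin in basement membranes, had 6.20, 6.16 and 6.26 in abdominal fat, 7.29, 5.97 and 5.97 in subcutaneous fat and 4.76, 3.71 and 4.38 in muscle. It was higher by 2.03 ± 0.31 (adjusted p = 0.000378), with muscle under 6 throughout. COL15A1, which anchors basement membranes to the fibres around them, had 11.80, 11.60 and 12.00 in abdominal fat, 11.20, 10.82 and 11.23 in subcutaneous fat and 10.15, 10.16 and 10.49 in muscle. It was higher by 1.17 ± 0.14 (adjusted p = 9.07e-05), and the abdominal arrays were also above the subcutaneous ones. The 3 other genes were dim in every tissue. COL10A1, a collagen of hypertrophic cartilage, had 3.59, 3.26 and 3.41 in abdominal fat, 3.47, 3.26 and 3.43 in subcutaneous fat and 5.03, 3.72 and 4.76 in muscle, a difference of -1.10 ± 0.25 (adjusted p = 0.00402). COL4A4, a chain of the kidney and inner ear form of type IV collagen, had 5.13, 5.60 and 5.41 in abdominal fat, 5.31, 5.22 and 5.41 in subcutaneous fat and 6.06, 5.87 and 5.41 in muscle. Muscle replicate 3 lay within the adipose range, and the difference was -0.43 ± 0.16 (adjusted p = 0.0447). Its partner COL4A3 was not called (-0.12 ± 0.12, adjusted p = 0.42).

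Collagens of other kinds were mostly lower or dim, with 2 of 8 higher, 5 lower and 1 not called. COL6A1, a chain of the beaded-filament type VI collagen that surrounds fat cells and muscle fibres, had 11.50, 11.44 and 11.51 in abdominal fat, 12.12, 12.20 and 12.03 in subcutaneous fat and 9.70, 9.11 and 10.22 in muscle. It was higher by 2.12 ± 0.20 (adjusted p = 1.58e-05). COL6A2, a partner chain of the same molecule, went the other way, with 7.33, 7.32 and 7.10 in abdominal fat, 7.28, 6.91 and 7.33 in subcutaneous fat and 7.96, 8.09 and 7.48 in muscle. All adipose arrays were below all muscle arrays, by -0.63 ± 0.16 on average (adjusted p = 0.00743), and by -0.19 at its other probe set. COL21A1, a collagen that attaches to fibrils, had 7.67, 6.31 and 7.75 in abdominal fat, 8.86, 8.94 and 7.95 in subcutaneous fat and 6.07, 5.74 and 5.99 in muscle. All adipose arrays were above muscle, by 1.98 ± 0.33 on average (adjusted p = 0.000651), though abdominal replicate 2 exceeded the highest muscle array by only 0.24.

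The other lower collagens carried small or dim signals. COL13A1, a membrane-spanning collagen of the nerve-muscle junction, had 4.92, 4.79 and 4.43 in abdominal fat, 3.79, 4.88 and 5.19 in subcutaneous fat and 5.93, 5.40 and 5.87 in muscle, a difference of -1.07 ± 0.28 (adjusted p = 0.00944). COL26A1, a short collagen described in mouse testis and ovary, had 6.84, 6.66 and 6.52 in abdominal fat, 6.31, 6.51 and 6.42 in subcutaneous fat and 7.00, 7.18 and 6.60 in muscle, a difference of -0.38 ± 0.14 (adjusted p = 0.0455). COL9A1, a cartilage collagen, had 2.56, 2.91 and 2.91 in abdominal fat, 2.68, 3.20 and 2.85 in subcutaneous fat and 3.78, 3.77 and 2.98 in muscle, and differed by -0.66 ± 0.20 (adjusted p = 0.0203). Muscle replicate 3 lay within the adipose range for COL26A1 and COL9A1, and the COL13A1 arrays did not overlap. COL17A1, a membrane collagen of skin attachment sites, had 4.90, 4.96 and 5.08 in abdominal fat, 5.08, 4.80 and 4.98 in subcutaneous fat and 5.35, 5.40 and 5.09 in muscle, and differed by -0.31 ± 0.12 (adjusted p = 0.0448). COL9A1 missed the threshold when muscle replicate 1 (adjusted p = 0.0958) or 2 (0.0915) was dropped. The call of COL4A4 was lost without any single array other than abdominal replicate 2 and muscle replicate 3 (adjusted p = 0.0574 to 0.194). COL17A1 lost its call without any single array other than subcutaneous replicate 1 and muscle replicate 3 (adjusted p = 0.0514 to 0.147), and COL26A1 without any other than abdominal replicate 1 and muscle replicate 3 (0.0551 to 0.189). COL12A1, which binds fibrils in tendon and muscle, was not called (0.22 ± 0.45, adjusted p = 0.707).

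Laminins had 4 of 5 measured chains higher and 1 lower. LAMA4 was the only alpha chain among them, and no probe set carried LAMA2 as its only symbol. LAMA4, the alpha chain of laminins around vessels and fat cells, had 10.55, 10.66 and 10.67 in abdominal fat, 10.40, 10.39 and 10.60 in subcutaneous fat and 8.01, 7.40 and 8.38 in muscle. The lowest adipose array was 2.01 above the highest muscle array, with a difference of 2.62 ± 0.19 (adjusted p = 2.69e-06). LAMC1, the gamma chain shared by most laminins, had 11.98, 11.90 and 12.14 in abdominal fat, 12.18, 12.12 and 12.26 in subcutaneous fat and 10.07, 9.38 and 10.44 in muscle. It was higher by 2.13 ± 0.20 (adjusted p = 1.46e-05). LAMB1, a beta chain of wide expression, had 10.80, 10.70 and 10.57 in abdominal fat, 9.27, 9.78 and 9.79 in subcutaneous fat and 8.35, 7.98 and 8.36 in muscle. Each tissue kept to its own range, and adipose tissue was higher by 1.92 ± 0.15 (adjusted p = 5e-06). LAMB2, the beta chain known from the nerve-muscle junction, was higher in adipose tissue too (1.57 ± 0.18, adjusted p = 5.74e-05). LAMB3, a chain of epithelial laminin, was dim everywhere, with 5.14, 5.22 and 5.15 in abdominal fat, 5.48, 5.34 and 5.15 in subcutaneous fat and 5.96, 5.66 and 5.36 in muscle. Its arrays overlapped, and its call (-0.41 ± 0.14, adjusted p = 0.0328) was lost without muscle replicate 1, where the difference was -0.26 (adjusted p = 0.15), without muscle replicate 2 (0.0775) and without abdominal replicate 1 or 3 (0.0608 and 0.0591) or subcutaneous replicate 2 or 3 (0.0523 and 0.0657).

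All 3 linkers of the basement membrane were higher. NID1, nidogen 1, had 10.93, 11.26 and 11.61 in abdominal fat, 10.93, 10.93 and 11.27 in subcutaneous fat and 8.33, 8.17 and 9.08 in muscle, and was higher by 2.63 ± 0.22 (adjusted p = 7.2e-06). NID2, its relative, had 10.88, 10.56 and 10.91 in abdominal fat, 10.79, 10.32 and 10.43 in subcutaneous fat and 9.11, 8.63 and 8.84 in muscle, and was higher by 1.79 ± 0.15 (adjusted p = 8.62e-06). HSPG2, perlecan, the heparan sulfate proteoglycan of basement membranes, had 8.19, 7.97 and 8.46 in abdominal fat, 8.22, 7.84 and 7.95 in subcutaneous fat and 6.94, 6.34 and 6.98 in muscle, and was higher by 1.35 ± 0.18 (adjusted p = 0.000127). In each of these the lowest muscle value was that of replicate 2, and no adipose array overlapped a muscle array.

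**Figure D2:**
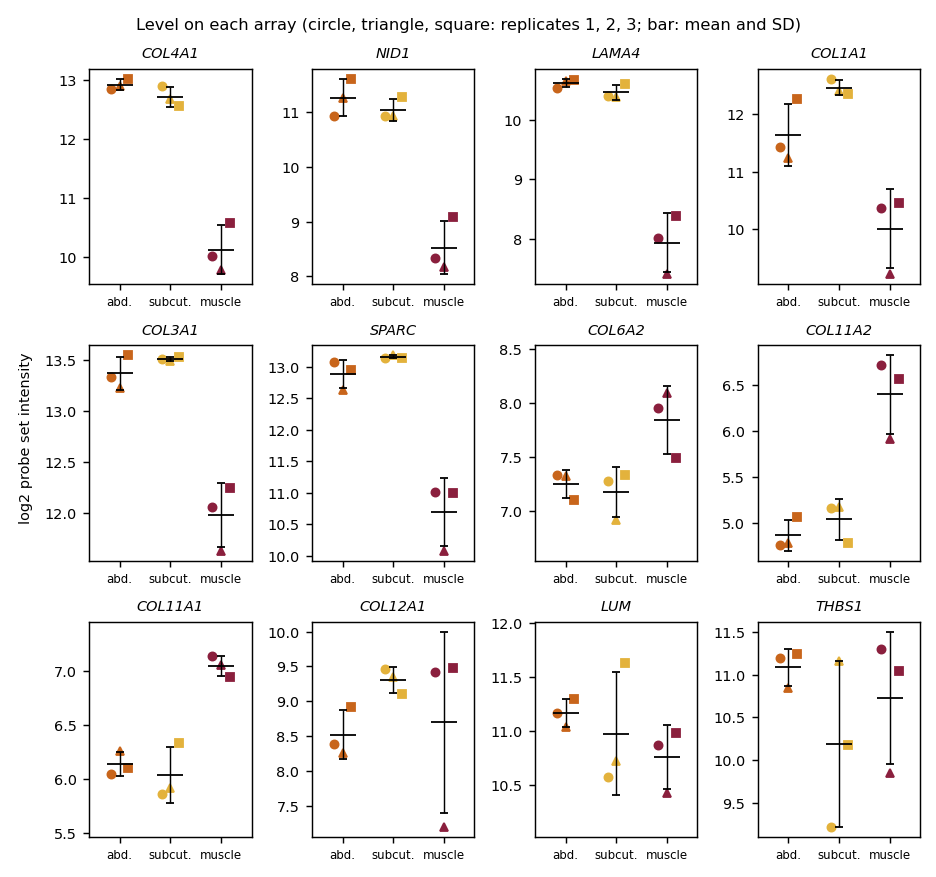
Log2 level of 12 matrix genes on each array of abdominal fat, subcutaneous fat and muscle, with the tissue mean and SD (n = 3) as the black bar and its own scale for each gene. COL4A1, NID1, LAMA4, COL1A1, COL3A1 and SPARC are high on all 6 adipose arrays, COL6A2, COL11A2 and COL11A1 are high in muscle, and COL12A1, LUM and THBS1 overlap.

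Of the cross-linking enzymes, 2 of 3 were higher. LOX, the lysyl oxidase that oxidises lysines of collagen and elastin, had 7.12, 6.06 and 6.98 in abdominal fat, 8.91, 7.94 and 8.37 in subcutaneous fat and 5.95, 5.01 and 5.81 in muscle. The subcutaneous arrays were the highest, and abdominal replicate 2 stood 0.11 above the highest muscle array. The difference was 1.97 ± 0.30 (adjusted p = 0.000392). LOXL1, which acts on elastic fibres, had 8.50, 8.81 and 9.11 in abdominal fat, 9.43, 10.10 and 9.17 in subcutaneous fat and 7.97, 6.46 and 8.23 in muscle, a difference of 1.63 ± 0.37 (adjusted p = 0.00406). Without muscle replicate 2, the lowest array, the difference was 1.09 (adjusted p = 0.00701). LOXL4, another family member, was not called (0.79 ± 0.33, adjusted p = 0.0692) but was called without abdominal replicate 1 (adjusted p = 0.0247).

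Small leucine-rich proteoglycans differed among themselves, with 2 of 5 higher, none lower and 3 not called. BGN, biglycan, had 9.15, 9.95 and 9.32 in abdominal fat, 8.80, 9.23 and 8.95 in subcutaneous fat and 7.96, 7.54 and 7.94 in muscle, and was higher by 1.42 ± 0.19 (adjusted p = 0.00016). DCN, decorin, had 12.87, 12.90 and 13.11 in abdominal fat, 13.22, 13.11 and 13.23 in subcutaneous fat and 12.23, 11.78 and 12.17 in muscle, and was higher by 1.02 ± 0.13 (adjusted p = 9.5e-05). Both kept adipose and muscle arrays apart. The subcutaneous values of DCN also lie not far under the array maxima. Whether this limits its size was not tested. LUM, lumican, was not called (0.31 ± 0.23, adjusted p = 0.274), and neither were KERA, keratocan (-0.41 ± 0.57, adjusted p = 0.569), a protein best known from the cornea, and FMOD, fibromodulin (-0.53 ± 0.43, adjusted p = 0.327), a tendon proteoglycan. A p that misses the threshold does not show equal levels. The SD of KERA was 1.41 on the abdominal arrays and 0.71 on the muscle arrays (n = 3 each).

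Glycoproteins and elastic fibre proteins had 6 of 8 higher and 2 not called. EFEMP1, fibulin 3, had 11.39, 11.71 and 11.80 in abdominal fat, 11.93, 11.51 and 11.90 in subcutaneous fat and 9.02, 8.94 and 9.26 in muscle. The lowest adipose array was 2.13 above the highest muscle array, and the difference was 2.63 ± 0.14 (adjusted p = 5.67e-07). ELN, elastin, the elastic core protein, had 7.30, 8.37 and 8.56 in abdominal fat, 8.25, 7.84 and 7.60 in subcutaneous fat and 5.44, 5.40 and 5.68 in muscle, a difference of 2.48 ± 0.26 (adjusted p = 3.29e-05). SPARC, osteonectin, a collagen-binding matricellular protein that limits fat cell formation in mice, had 13.08, 12.64 and 12.95 in abdominal fat, 13.15, 13.19 and 13.15 in subcutaneous fat and 11.01, 10.07 and 11.00 in muscle, and was higher by 2.33 ± 0.21 (adjusted p = 1.04e-05). The subcutaneous arrays were almost level, not far under their array maxima of 13.70 to 13.71, and abdominal replicate 2 was the lowest adipose array. Whether the top of the scale limits the size for SPARC was not tested. FN1, fibronectin, and FBN1, the microfibril protein fibrillin 1, were higher by 1.87 ± 0.32 and 1.84 ± 0.28. THBS2, a thrombospondin that limits vessel growth, was called (1.14 ± 0.41, adjusted p = 0.0389), yet its arrays overlapped, and it missed the threshold whenever muscle replicate 2 (adjusted p = 0.18), muscle replicate 3 (0.0635), abdominal replicate 1 (0.0751), abdominal replicate 3 (0.0597) or subcutaneous replicate 2 (0.055) was dropped. POSTN, periostin, and THBS1, thrombospondin 1, were not called (-0.06 ± 0.44 and -0.09 ± 0.41).

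Different probe sets of a gene did not always give the same answer. Of the 23 members with several probe sets, 11 had the same call at every one. LAMC1 had 6, of which 5 were higher, by 2.10 to 2.48, and a dim one lower by -0.53. For COL6A1 the brightest probe set was called higher and a dim one lower (-0.70). THBS1, whose brightest probe set was not called, had 2 others higher (1.85 and 0.51) and 2 lower (-0.98 and -0.48) among its 6. No other member had probe sets called in both directions. The one at 1.85 had 9.61, 9.72 and 9.54 in abdominal fat, 9.93, 9.64 and 9.74 in subcutaneous fat and 7.92, 7.46 and 8.17 in muscle (adjusted p = 7.2e-06), while the brightest had 11.19, 10.84 and 11.24 in abdominal fat, 9.22, 11.17 and 10.18 in subcutaneous fat and 11.30, 9.85 and 11.04 in muscle. At the brightest probe set the tissues overlap, and at the other they do not. ELN differed by 2.48 at its brightest probe set and by -0.20 at its other (adjusted p = 0.205), which had 6.12 to 6.67 on the adipose arrays and 6.37 to 6.75 on the muscle arrays. COL11A1 was lower by -4.32 at a probe set with 3.11, 3.26 and 3.10 in abdominal fat, 3.05, 3.13 and 2.98 in subcutaneous fat and 8.39, 6.37 and 7.52 in muscle (adjusted p = 4.88e-06), against -0.96 at its brightest. COL12A1 was 1.44 higher at a dim probe set (adjusted p = 0.000295) and not called at its brightest, and COL27A1 was called higher by its other one alone (0.68, adjusted p = 0.0244). Which transcripts each probe set reads was not tested.

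**Figure D3:**
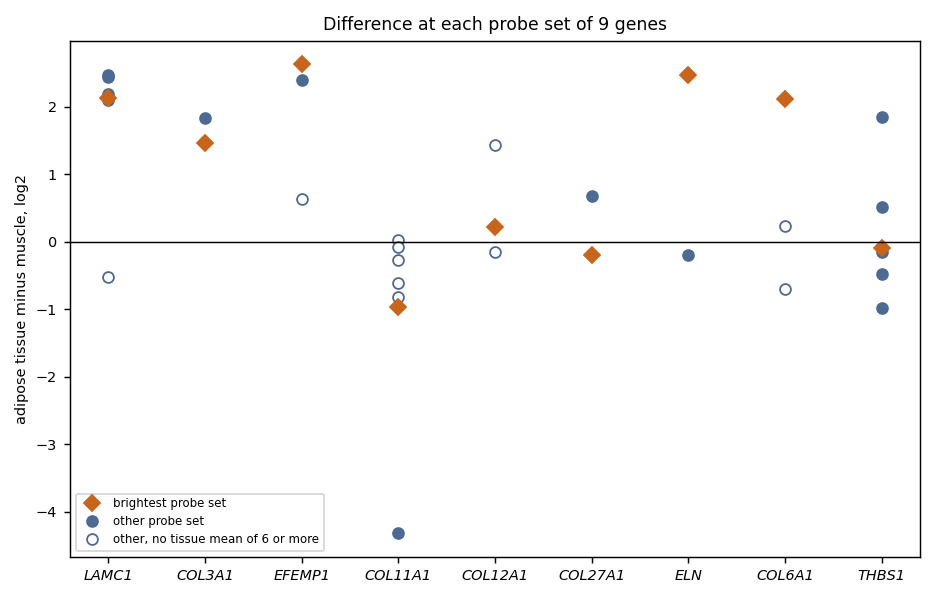
Difference between adipose tissue and muscle (log2) at every probe set of 9 genes, with the brightest probe set of each gene as a diamond and dim ones as open circles. Those of LAMC1 lie at 2.10 to 2.48 with 1 dim exception, those of THBS1 at -0.98 to 1.85 and those of COL11A1 at -4.32 to 0.03.

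Muscle replicate 2 had the lowest matrix signal of the muscle arrays. It was the lowest of the 3 for 34 of the 47 members (72.3%), against 30.1% of all 9155 genes. The summed intensity of the members was 38544, 23107 and 39806 on muscle replicates 1, 2 and 3. COL12A1 had 8.39, 8.26 and 8.92 in abdominal fat, 9.46, 9.35 and 9.10 in subcutaneous fat and 9.41, 7.19 and 9.48 in muscle, where muscle replicate 2 differed by -2.26 from the mean of the other muscle arrays, and POSTN had 7.33, 7.16 and 7.69 in abdominal fat, 5.46, 6.97 and 5.23 in subcutaneous fat and 7.54, 5.70 and 6.85 in muscle. Marker sums differed on the same array. The summed intensity of 10 fibroblast markers was 6606, 3892 and 5744 on muscle replicates 1, 2 and 3, that of 5 tendon and cartilage markers 6217, 2494 and 5547, and that of 10 muscle fibre markers 69653, 77656 and 70722. The fibroblast list includes 2 matrix proteins, DPT (log2 11.13, 10.46 and 10.78) and MFAP5 (10.74, 9.82 and 10.73). Its sum is therefore not a separate reading from matrix signal. Adipocyte markers summed to 6175, 5043 and 8213 and macrophage markers to 2515, 1024 and 1458 on the same replicates. Of these, 75.0% and 87.5% were lowest on replicate 2. Endothelial markers summed to 1794, 2003 and 2132, and pericyte and smooth muscle markers to 3999, 4324 and 4390. Of those, 30.8% and 30.0% were lowest on replicate 2. The part of any of these cell types in the low matrix signal was not tested. Without muscle replicate 2, 26 members were called higher and 8 lower. COL12A1 then turned to -0.54 (adjusted p = 0.0421) and FMOD reached -1.06 (adjusted p = 0.0491), both called lower, while COL1A1 was 1.64 and COL1A2 0.995 higher. COL27A1 was called lower at its brightest probe set without muscle replicate 3 (adjusted p = 0.0232), while its other probe set was called higher with all arrays.

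**Figure D4:**
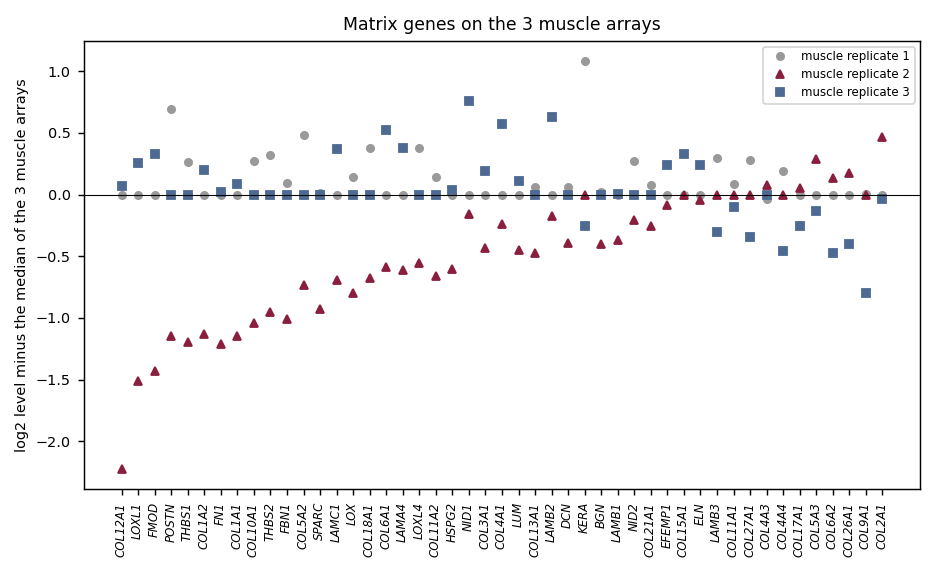
Log2 level of the 47 matrix genes on each muscle array, as the distance from the median of the 3 arrays, ordered by how far replicate 2 lies from the mean of the others. Replicate 2 is lowest for 34 genes, with COL12A1, LOXL1 and FMOD at the far left and COL2A1 at the right.

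Each depot was also set against the same muscle arrays. In abdominal fat 26 members were called higher and 9 lower, where 29.0% and 27.1% of all genes were. In subcutaneous fat 27 were called higher and 7 lower, where 30.4% and 25.9% of all genes were. The members whose call was not shared were few. THBS2 was called in subcutaneous fat (1.62, adjusted p = 0.0177) and not in abdominal fat (0.66, adjusted p = 0.28), FMOD was called lower in abdominal fat (-1.36, adjusted p = 0.0463) and not in subcutaneous fat (0.30, adjusted p = 0.643), and COL9A1, LAMB3 and COL26A1 were each called lower in a single depot. In abdominal fat 8 calls were lost to single arrays. FMOD lost its call with 7 of the 9 arrays left out in turn, all but abdominal replicate 1 and muscle replicate 2 (adjusted p = 0.0594 to 0.157), and was -0.86 without abdominal replicate 2. LOXL1 lost it without abdominal replicate 2 or 3 or muscle replicate 2 (0.0744 to 0.108), and was 0.71 without the last. LOX (0.082 to 0.0883) and COL21A1 (0.0574 to 0.0711) lost theirs without abdominal replicate 1 or 3 or muscle replicate 2. COL6A2 (0.0731 to 0.0827) did without abdominal replicate 3 or muscle replicate 1 or 2, and COL13A1 (0.0531 to 0.0919) without abdominal replicate 2 or 3 or muscle replicate 1 or 3. COL9A1 (0.0524 to 0.105) did without abdominal replicate 1 or 3 or muscle replicate 1 or 2, and LAMB3 (0.0615 to 0.109) without any abdominal array or muscle replicate 1 or 2. In subcutaneous fat 4 calls were lost to single arrays. COL26A1 (0.0634 to 0.0916) lost its call without subcutaneous replicate 1 or 3 or muscle replicate 1 or 2, THBS2 without subcutaneous replicate 1 (0.0563) or muscle replicate 2 (0.067), COL6A2 without subcutaneous replicate 2 (0.0516) and COL13A1 without muscle replicate 1 (0.061). COL1A2 was 0.82 higher in abdominal fat without muscle replicate 2, and COL13A1 was -0.70 in subcutaneous fat without subcutaneous replicate 1, both still called. Both comparisons rest on the same muscle arrays, and the depots are compared directly in what follows.

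Between the depots, LAMB1 was the only member called. It had a mean of 10.69 ± 0.12 in abdominal fat and 9.61 ± 0.30 in subcutaneous fat (SD, n = 3 each). The abdominal arrays were all above the subcutaneous ones, by 1.08 ± 0.17 (adjusted p = 0.0293). Of all genes 0.808% were called higher and 0.688% lower in abdominal fat, where 1 and 0 of the 47 members were. The call was lost when any one of the 6 adipose arrays was left out, with adjusted p-values of 0.0535 to 0.0851, and a difference of 0.91 to 1.16. At an unadjusted p under 0.05 there were 9 members (19.1%), 3 higher and 6 lower in abdominal fat, against 18.0% of all genes. The abdominal arrays lay wholly above the subcutaneous arrays for 4 members and wholly below for 9, against 10.7% and 17.9% of all genes.

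The members next in order of p were higher in subcutaneous fat, except COL15A1 and POSTN, and none passed. LOX had a mean of 6.72 ± 0.57 in abdominal fat and 8.41 ± 0.49 in subcutaneous fat, a difference of -1.69 ± 0.35 (adjusted p = 0.054). COL15A1 differed by 0.72 ± 0.17 (adjusted p = 0.0725). LOX passed without muscle replicate 2 (adjusted p = 0.0428). Neither gene overlapped between the depots. COL21A1 differed by -1.34 ± 0.38 (adjusted p = 0.128), a value that was -0.88 without abdominal replicate 2. FMOD had 9.77, 8.17 and 9.55 in abdominal fat, 10.49, 10.88 and 11.08 in subcutaneous fat and 10.88, 9.45 and 11.21 in muscle, a difference of -1.66 ± 0.49 (adjusted p = 0.145). POSTN differed by 1.50 ± 0.51 (adjusted p = 0.201). LAMB2, the other beta laminin, differed by -0.59 ± 0.21 (adjusted p = 0.215), opposite in sign to LAMB1. COL1A1 and COL6A1 differed by -0.82 ± 0.34 and -0.63 ± 0.23 (adjusted p = 0.31 and 0.235).

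Sums over markers of other cell types were set beside these values. The fibroblast list includes the matrix proteins DPT and MFAP5. The summed intensity of 10 fibroblast markers was 11028 to 14003 on the abdominal arrays and 18694 to 20268 on the subcutaneous arrays. That of 13 endothelial markers was 8808 to 10162 on the abdominal arrays and 6667 to 7899 on the subcutaneous arrays, and that of 10 pericyte and smooth muscle markers was 11034 to 16393 on the abdominal arrays and 8502 to 12896 on the subcutaneous arrays. The pericyte sums overlap between the depots. Of these markers, 0 of 10 fibroblast, 0 of 10 pericyte and smooth muscle and 0 of 8 adipocyte markers were called between the depots, and 1 of 13 endothelial markers was, the receptor TEK (1.09, adjusted p = 0.0293). Adipocyte markers summed to 28793 to 30975 in abdominal and 23958 to 27581 in subcutaneous fat. Their part in the differences of LAMB1 and LOX was not tested.

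**Figure D5:**
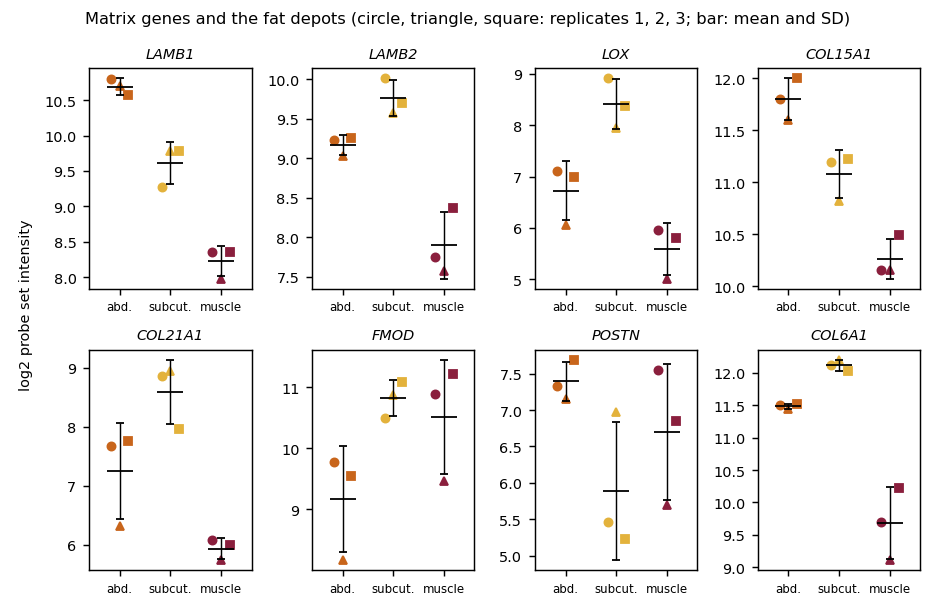
Log2 level of 8 matrix genes on each array, with the tissue mean and SD (n = 3) as the black bar and its own scale for each gene. LAMB1, COL15A1 and POSTN are higher on all 3 abdominal arrays than on any subcutaneous array, and LAMB2, LOX, COL21A1, FMOD and COL6A1 are lower. LAMB1 alone passed the adjusted threshold.

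Several members lie beside each other in the genome. In the RefSeq gene table of the ARS-UCD2.0 assembly, COL6A1 and COL6A2 are neighbouring protein-coding genes, with differences from muscle of 2.12 and -0.63. COL5A2 and COL3A1 are neighbours as well, and both were higher in adipose tissue. KERA, LUM and DCN follow each other on chromosome 5, at -0.41, 0.31 and 1.02. COL4A4 and COL4A3 adjoin at -0.43 and -0.12, both dim.

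Genes that fold and process collagen were mostly higher in adipose tissue as well. The shares of all genes to read these lists against are the 32.0% higher and 29.5% lower given above. Of 28 listed genes 21 were measured, and 14 were higher in adipose tissue, 1 lower and 6 not called (median 1.01). CRTAP, which helps hydroxylate collagen prolines, was higher by 2.20 ± 0.14 and PCOLCE2, an enhancer of procollagen cleavage, by 1.99 ± 0.24. P4HA3, a prolyl hydroxylase subunit, was lower (-2.33 ± 0.47, adjusted p = 0.00213). Cell receptors for matrix had 13 of 20 higher and 2 lower (median 0.66), the lower ones being the integrins ITGA10 and ITGB6. The higher ones included CD36, a thrombospondin receptor that also takes up fatty acids (1.78 ± 0.12), and the integrins ITGB3 (1.62 ± 0.23) and ITGA5 (1.54 ± 0.18). Among genes of transforming growth factor beta signalling and its matrix targets, 5 of 15 were higher, a share close to that of all genes, and 1, SMAD3, lower (median 0.24), with the receptor TGFBR2 at 2.12 ± 0.13, TGFBI, a secreted matrix adaptor, at 1.80 ± 0.29 and the ligand TGFB3 at 0.77 ± 0.14. Other matrix proteins had 14 of 29 higher and 4 lower (median 0.51), ECM1 at 3.03 ± 0.27, with THBS4, COMP, FRZB and VTN lower. Between the depots 2 genes of these 4 lists were called, P4HA2, another prolyl hydroxylase subunit (-0.82, adjusted p = 0.0293), and ECM1 (-1.68, adjusted p = 0.039), both lower in abdominal fat.

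Markers of other cell types also moved with the comparison of adipose tissue and muscle. DPT and MFAP5, in the fibroblast list, are themselves matrix proteins. Fibroblast markers had 8 of 10 higher and none lower, S100A4 by 2.27 ± 0.20, with a summed intensity of 11028 to 20268 on the adipose arrays and 3892 to 6606 on the muscle arrays. Endothelial markers had 11 of 13 higher and none lower, ROBO4 by 2.93 ± 0.18, at 6667 to 10162 on the adipose arrays and 1794 to 2132 on the muscle arrays. Pericyte and smooth muscle markers had 7 of 10 higher and 1 lower, MCAM by 3.48 ± 0.25, at 8502 to 16393 on the adipose arrays and 3999 to 4390 on the muscle arrays. Macrophage markers had 8 of 8 higher, CD68 by 3.38 ± 0.45, at 5499 to 11314 on the adipose arrays and 1024 to 2515 on the muscle arrays. Adipocyte markers summed to 23958 to 30975 on the adipose arrays and 5043 to 8213 on the muscle arrays. Muscle fibre markers summed to 1252 to 2862 on the adipose arrays and 69653 to 77656 on the muscle arrays. Schwann cell markers had 1 of 3 higher, MBP by 1.40 ± 0.22, and mesothelial markers 1 of 5 higher, KRT19, and 1 lower, KRT18. None of 7 lymphocyte markers was called, and all were dim. The share of any of these cells in the matrix differences was not tested.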

How the data were processed

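Total RNA of 9 samples (3 tissues, 3 arrays each) was measured on a 1-colour Affymetrix bovine array. The deposited values are probe set intensities on a linear scale (3.06 to 17451), summarised by the authors with RMA, per the submitters' processing notes. For RMA, a version or settings were not given in the sources used here. From these deposited intensities log2 values were taken, with no further normalization. Of 24128 probe sets, 112 controls were left out. Symbols came from the platform annotation, updated through RefSeq: 13292 probe sets had 1 symbol (13263 matched by gene ID, 2 by accession, 27 kept as annotated), 86 several and 10638 none.

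Using limma 3.58.1 in R 4.3.3, the 9 arrays entered a single model with a mean per tissue, followed by eBayes, two-sided tests and Benjamini-Hochberg adjustment over 24016 probe sets at 0.05. The contrasts were the mean of both depots, each depot, and abdominal minus subcutaneous fat. Errors are moderated standard errors, on 6 residual and 3.75 prior degrees of freedom. The model was tested on simulated data. Tables were handled with Python 3.11.15 and pandas 2.3.3. Values on every array were given, in each of 8 role groups, for up to 3 called members with the largest difference and every member called lower, and between depots for the 6 with the smallest p. From 4 pathway and 10 marker lists, up to 3 called genes with the largest difference could be named. SMAD3, ITGA10, ITGB6, FRZB, VTN, CKM, ACAN, P4HA2 and TEK were named after their values were seen. Members and lists were chosen with earlier results of these data known. Alternatives covered prior variance, a dim filter, scaling, array weights, a replicate block, the samples fitted, the probe set of a gene, the test, the threshold and each array left out. Counting members over 6 alone and showing every probe set were chosen after seeing the data.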

Additional observations from a re-analysis of the deposited data

Results flagged for a closer look

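LAMB1 differed from muscle by more in abdominal than in subcutaneous fat, a direct difference between the depots of 1.08 ± 0.17 (limma, adjusted p = 0.0293). All 3 abdominal arrays were above all 3 subcutaneous arrays, and the call did not survive leaving out any single adipose array.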

How the results depend on the processing

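Of 38 members called between adipose tissue and muscle, 32 were called with each array left out. The 11 lower calls became 2 when tested against a difference of 0.5, 6 at an adjusted p under 0.01, 5 among members with a tissue mean of at least 6, and 6 to 12 with an array left out. With probe sets over 6 on at least 3 arrays they were 3, because the other 8 were not tested under that filter, and no call was lost. An intensity trend lost COL17A1 and COL26A1, and array weights lost THBS2 and gained COL27A1, as lower at its brightest probe set. ELN turned to -0.20 with the probe set whose lowest tissue mean is highest (adjusted p = 0.205). The mean over a gene's probe sets gave COL1A1 1.16, COL6A1 0.55 and ELN 1.14. Between the depots the 1 call became 2 with the dim filter (LOX added), 4 with array weights (COL15A1, COL6A1 and LOX added), 2 with only the arrays compared (COL6A1 added), 2 with the gene mean (LOX added), 0 against 0.5, 0 at 0.01, and 0 to 2 with an array left out. By limma without these changes, 9 members had an unadjusted p under 0.05. The cause was not tested.

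Whether leading title numbers pair the samples is not settled. All 7 same-numbered pairs correlated above 0 (0.043 to 0.362, 5 over 0.1). Of 20 pairs with different numbers, 15 were below 0 (-0.324 to 0.17). Each array entered as its deviation from its own tissue mean. The negative values therefore follow in part from the positive ones and are no separate evidence of pairing. With these numbers as a replicate block, 27 members were called higher and 8 lower, without COL4A4, COL17A1 and COL26A1. In abdominal fat 24 were higher and 8 lower, without COL6A2 (adjusted p = 0.091), COL13A1 (0.159), COL21A1 (0.0837) and LOXL1 (0.127) and with KERA (0.033), and in subcutaneous fat 27 and 8, with COL9A1 (0.036). Between the depots LAMB1 was then 1.21 (adjusted p = 0.0729) and LOX passed (0.0175). Signal near background limits the 7 dim members.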
